A study of Homo sapiens with 6 samples.

Results

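The genes examined here encode the enzymes, transporters and regulatory subunits through which a hepatocyte takes up glucose, breaks it down to pyruvate and lactate, makes it anew and stores it as glycogen. They were chosen by name, as 41 genes of glucose transport, glycolysis, lactate handling, pyruvate dehydrogenase control, gluconeogenesis and glycogen. All 41 had 1 row each in a count table of 58735 genes. Of these 41, 38 had enough reads to be among the 17844 genes tested, and 3 did not.

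The RNA came from HepaRG, an established human line of bipotent liver cells that can be differentiated towards hepatocytes and bile duct cells in dimethyl sulfoxide (DMSO). All libraries shared that differentiation in 1.8% DMSO, a transfection with siRNA for 48 h and then 24 h with 2 free fatty acids, 800 µM oleic and 400 µM palmitic acid. The groups were labelled PTPF (n = 3 libraries) and STATF (n = 3), labels that are not spelled out, in a study whose siRNAs were aimed at PTPRD, a receptor-type tyrosine phosphatase, and at STAT3, a cytokine-activated transcription factor. No library with control siRNA and none without fatty acids was analysed here, so each value below compares the 2 labelled groups with each other. A single line was used, and whether the replicates were separate cultures is not stated, so the p-values below reflect variation among the 6 libraries that may be only technical.

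Libraries held 33225627 to 40796767 counts. STAT3 was at 435.9, 436.7 and 457.4 CPM (counts scaled to library size) in the PTPF-labelled libraries and at 113.9, 131.8 and 113.1 CPM in the STATF-labelled ones. PTPRD was at 10.04 to 12.75 and at 11.12 to 12.2 CPM, with a log2 fold change of 0.00 (95% interval -0.19 to 0.20, edgeR adjusted p = 0.999). The PTPF label was therefore not matched by a lower PTPRD level, and every direction below is between libraries by label. Of 11 hepatocyte markers, 2 were higher under the PTPF label and 5 lower. Among all genes tested, 21.6% passed the same edgeR threshold in either direction. The summed level of the hepatocyte markers was 42230 to 49030 CPM against 40050 to 40940 CPM. The higher sum rests on SERPINA1, at 23740 ± 2070 against 14460 ± 501 CPM (SD, n = 3 each). ALB, among the 5 lower, was at 12010 ± 797 against 14870 ± 549 CPM (SD, n = 3 each). CYP3A4 and SLC10A1, also among the 5 lower, differed by more. CYP3A4 was at 137.2 ± 17.9 against 347.0 ± 61.1 CPM and SLC10A1 at 4.34 ± 1.26 against 11.82 ± 1.45 CPM (SD, n = 3 each). Of 10 biliary and progenitor markers 3 were lower and 1 higher, at 305.9 to 340.2 against 295.3 to 313.1 CPM in sum. EPCAM and CFTR were at no more than 3 counts in any library. The higher sum rests on CD24, the 1 higher marker, at 185.1 ± 12.8 against 120.5 ± 2.41 CPM (SD, n = 3 each). KRT19, among the 3 lower, was at 75.7 ± 6.4 against 112.7 ± 10.3 CPM (SD, n = 3 each). The endothelial list summed to 33.6 to 39.7 against 57.8 to 61.7 CPM, nearly all of it KDR, and CDH5 was at no more than 3 counts. The mesenchymal list summed to 52.2 to 68.9 against 54.2 to 72.4 CPM and the immune list to 16.4 to 19.4 against 10.9 to 12.6 CPM, with PTPRC and CD3E at no more than 3 counts. Most of the immune sum was CD14, at 14.2 ± 1.62 against 8.14 ± 0.604 CPM (SD, n = 3 each). The part of these marker differences in the results below was not tested, and in bulk RNA fewer cells of a type cannot be told apart from less RNA per cell.

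In a hepatocyte, glucose crosses the membrane mainly through GLUT2, is phosphorylated, and can then enter glycolysis, be stored as glycogen or leave again as free glucose. Glycolysis and gluconeogenesis share most of their reversible enzymes and differ at a few one-way steps, namely the hexokinase and glucose-6-phosphatase pair, the phosphofructokinase and fructose bisphosphatase pair, and pyruvate kinase against pyruvate carboxylase with PEP carboxykinase. Pyruvate is either reduced to lactate or enters the mitochondrion, where pyruvate dehydrogenase kinases restrain its oxidation, a control that is known to tighten when fatty acids are the main fuel.

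Across the pathway, 8 of the 38 genes tested were higher and 9 lower in PTPF-labelled libraries at an edgeR quasi-likelihood adjusted p under 0.05. In the whole table the same threshold called 21.6% of genes, 10.1% higher and 11.6% lower. The 8 higher genes were SLC2A2, PFKFB3, ALDOC, LDHA, SLC16A3, PDK1, SLC37A4 and PYGL. The 9 lower genes were PFKFB1, PKM, PKLR, PDK2, PDK3, PDHA1, PCK2, G6PC and PPP1R3B. The groups of 3 libraries did not overlap in 23 of the 38 genes, where 35.7% of all genes showed no overlap. Most differences were small: 14 of the 17 called genes differed by less than 1.5-fold, and the 3 that differed by more were G6PC, PFKFB1 and PKLR, all lower (5.32% of all genes were called and differed by more than 1.5-fold). The median log2 fold change of the 38 genes was -0.10, beside 0.00 over all genes tested. Scaled by library totals alone, 5 genes were higher and 14 lower, and over all genes 1164 were higher and 2981 lower in place of 1801 and 2062. Without PTPF replicate 3 the count of higher genes was 4, and without STATF replicate 2 it was 5. The scaling factors themselves separated the groups, at 0.9529 to 0.9985 in PTPF-labelled and 1.015 to 1.03 in STATF-labelled libraries.

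**Figure D1:**
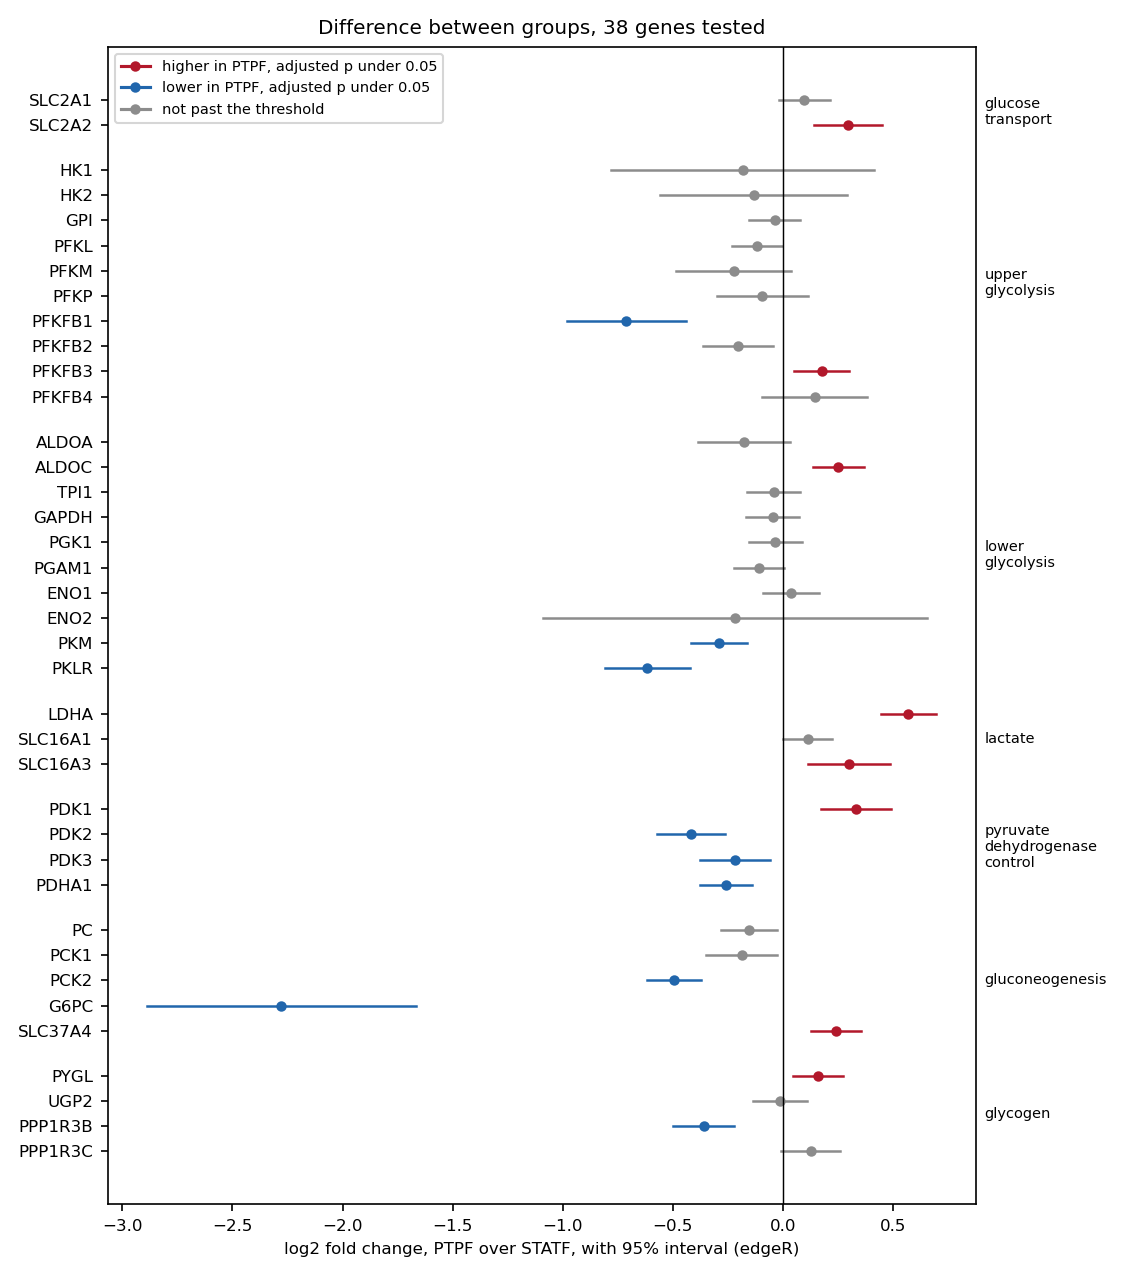
Log2 fold change of PTPF-labelled over STATF-labelled libraries (horizontal axis) with its 95% interval for the 38 genes tested, ordered by step. G6PC at -2.28 stands far below the others, which lie between -0.71 and 0.57, and genes of 1 step are often on both sides of 0.

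The largest difference of the pathway was in G6PC, the catalytic subunit of glucose-6-phosphatase, which performs the last step of both gluconeogenesis and glycogen breakdown in the liver by releasing free glucose. It stood at 5.46, 3.43 and 6.56 CPM in PTPF-labelled libraries and at 23.3, 21.9 and 29.3 CPM in STATF-labelled ones. Every PTPF-labelled library was thus below every STATF-labelled library, and the gap between the groups was wider than either group's range. The difference was 4.85-fold, a log2 fold change of -2.28 (edgeR adjusted p = 0.00163, SE 0.24), on 126 to 214 against 874 to 1096 counts. It was the only member of the pathway past 2-fold, a size reached together with the call by 2.11% of all genes tested. Over the alternative settings tried its log2 fold change lay between -2.49 and -2.04. G6PC occupies bases 42900797 to 42913369 of the plus strand of chromosome 17 in GRCh38, and none of its exon bases is shared with another gene. Its ubiquitous relative G6PC3, named after its values were seen, was at 66.5 ± 3.56 against 67.8 ± 4.06 CPM (SD, n = 3 each) and did not pass the test.

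The partner of the phosphatase went the other way. SLC37A4, the transporter that carries glucose-6-phosphate into the endoplasmic reticulum where the phosphatase acts, was at 86.7, 79.4 and 85.0 CPM in PTPF-labelled libraries and at 70.3, 69.2 and 73.1 CPM in STATF-labelled ones. These groups did not overlap, with a log2 fold change of 0.24 (edgeR adjusted p = 0.00214, SE 0.056). Of the SLC37A4 exon bases, 8.79% are shared with TRAPPC4 on the opposite strand.

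Of the earlier steps of gluconeogenesis, PCK2 was lower, PCK1 and PC did not pass and FBP1 was not tested. PCK2 (chromosome 14, 24094053 to 24110598, plus strand), the mitochondrial PEP carboxykinase, was at 119.2, 102.0 and 110.6 CPM in PTPF-labelled libraries against 159.7, 151.0 and 156.8 CPM, with no overlap and a log2 fold change of -0.50 (edgeR adjusted p = 3.26e-07, SE 0.059). PCK1, the cytosolic enzyme and the one most closely tied to hormonal control, was at 174.8, 139.4 and 175.5 against 186.8, 173.4 and 197.5 CPM. Its groups overlapped, and its log2 fold change of -0.19 did not pass (95% interval -0.35 to -0.03, edgeR adjusted p = 0.0944). Among the alternative settings, PCK1 passed without a filter on low counts (edgeR adjusted p = 0.00969) and with library totals as the scaling (0.0143). It also passed with replicate number added to the fit as a block. The log2 fold change of PCK1 lay between -0.25 and -0.08 over all alternatives. PC, pyruvate carboxylase, which supplies the oxaloacetate for both, had a log2 fold change of -0.16 and an edgeR adjusted p of 0.0737. Among the same settings PC passed with library totals (0.00869), without PTPF replicate 3 (0.0182) and with the replicate block.

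FBP1, the liver fructose bisphosphatase, was almost undetected. It had 2, 5 and 0 counts in PTPF-labelled libraries and 1, 2 and 1 in STATF-labelled ones, 11 counts in all against 3403 for G6PC. In the library with no FBP1 read the upper limit was 3 counts, equal to 0.0903 CPM of its unscaled total. At this depth no difference in FBP1 could be measured, and the gene was not tested. Its muscle relative FBP2, also named after its values were seen, was below the filter too.

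**Figure D2:**
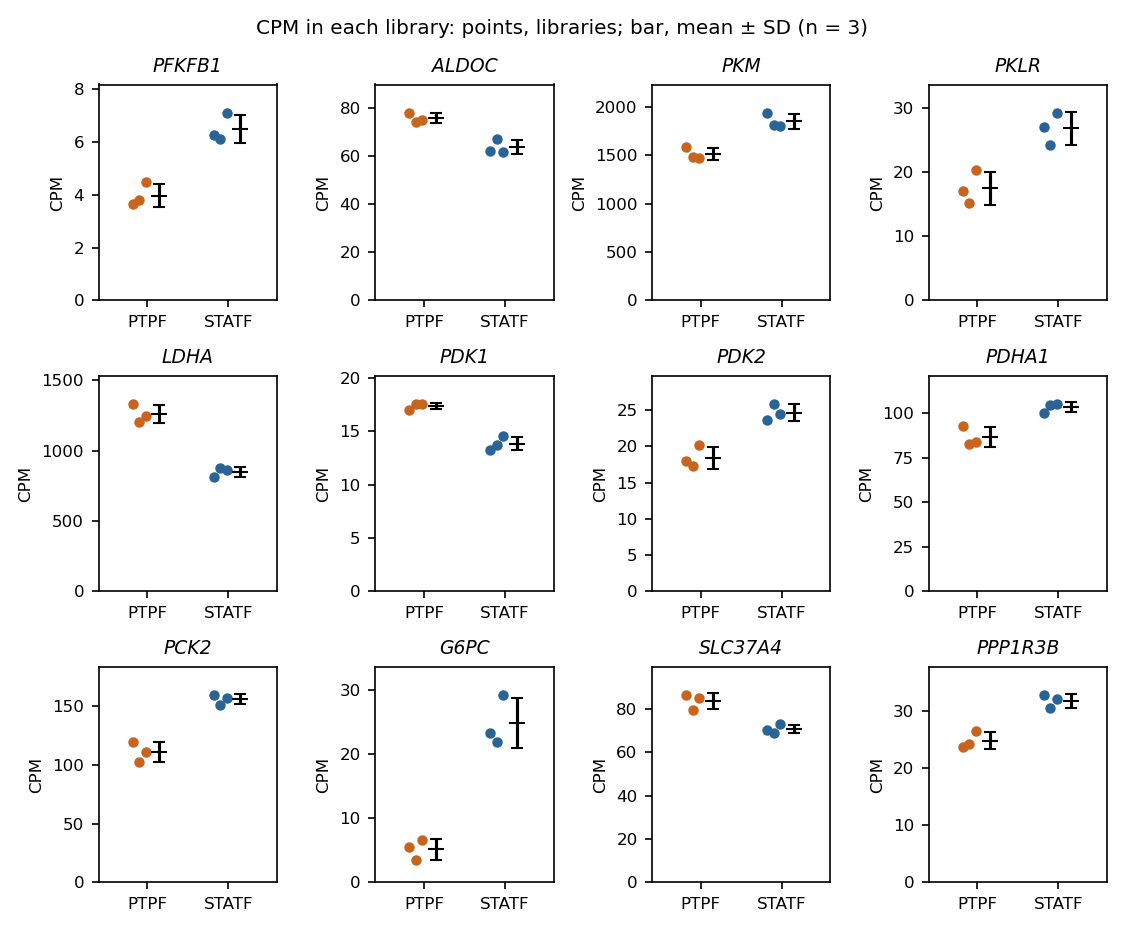
CPM (vertical axes, from 0) of the 12 genes that passed in every alternative setting that tested them, with 1 point per library and the mean ± SD (n = 3) beside the points. The points of the groups do not overlap in any panel, and the gap relative to the level is widest for G6PC.

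Of the 2 glucose transporters listed, 1 passed. SLC2A2, which encodes GLUT2, the low-affinity transporter of hepatocytes, was at 32.9, 30.6 and 38.8 CPM in PTPF-labelled libraries and at 26.7, 27.9 and 28.7 CPM in STATF-labelled ones. PTPF replicate 3 was the highest, and without it the log2 fold change went from 0.29 (edgeR adjusted p = 0.00499, SE 0.075) to 0.19 (edgeR adjusted p = 0.0778). SLC2A1, the widely expressed transporter GLUT1, was at 57.4 to 60.4 against 54.2 to 57.3 CPM and did not pass (log2 fold change 0.10, edgeR adjusted p = 0.257). Per kilobase of gene length, the level of SLC2A1 was above that of SLC2A2, at 12.6 ± 0.349 and 9.97 ± 1.24 CPM per kilobase in PTPF-labelled libraries (SD, n = 3 each).

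Hexokinases trap glucose in the cell. HK1 and HK2 were both scarce, at 17 to 53 and 52 to 84 counts per library, and neither passed. At that depth their 95% intervals were wide, from -0.78 to 0.41 for HK1 and from -0.56 to 0.29 for HK2 on the log2 scale. The hexokinase relative HKDC1, named after its values were seen, was at 55.6 to 71.8 CPM. On the scale of CPM per kilobase HKDC1 stood at 16.3 ± 0.494 in PTPF-labelled libraries, HK2 at 0.271 ± 0.0386 and HK1 at 0.152 ± 0.0602 (SD, n = 3 each). HKDC1 thus had the highest transcript level of these 3 hexokinase genes, and it did not differ past the test between the groups (edgeR adjusted p = 0.178).

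**Figure D3:**
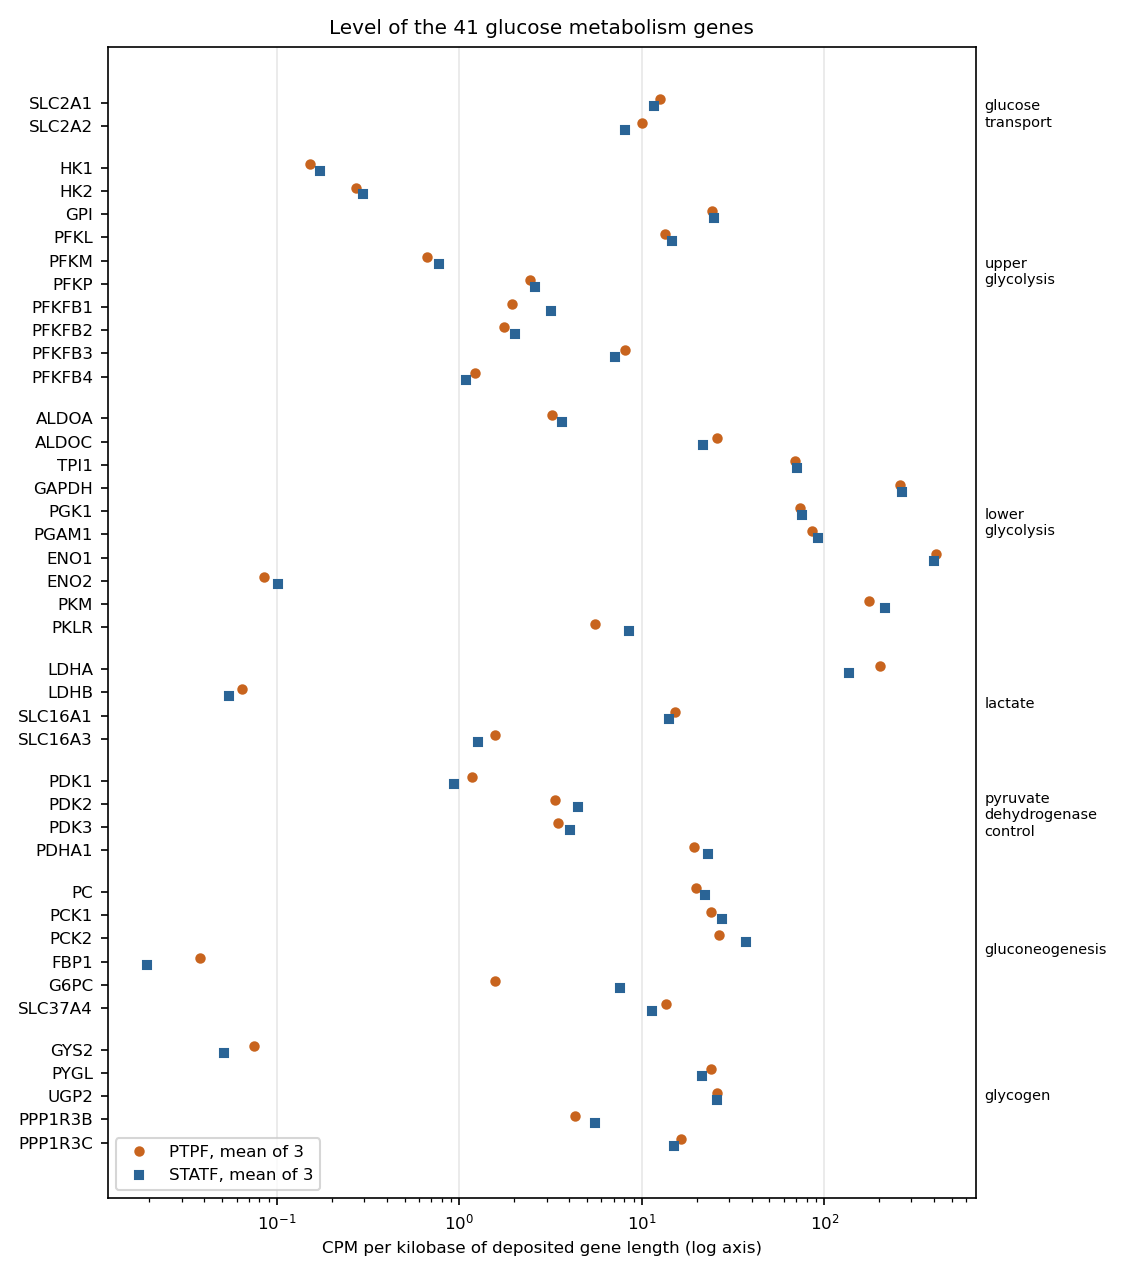
Mean level of all 41 genes as CPM per kilobase of deposited gene length (horizontal log axis), ordered by step, with circles for PTPF-labelled and squares for STATF-labelled libraries (n = 3 each). ENO1, GAPDH, PKM and LDHA lie above 100, while HK1, HK2, PFKM, ENO2, LDHB, FBP1 and GYS2 lie below 1. The positions of ALDOA, GYS2 and LDHB carry the limit that many of their exon bases are shared with another gene.

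At the phosphofructokinase step, the main control point of glycolysis, none of the 3 catalytic subunits passed, while 2 of the 4 PFKFB regulators did. PFKL, the liver subunit, was at 115.0 to 124.0 CPM in PTPF-labelled and 126.6 to 135.1 CPM in STATF-labelled libraries, without overlap, but did not pass (log2 fold change -0.12, edgeR adjusted p = 0.133), although it did with library totals (0.0118). PFKP, the platelet subunit, and PFKM, the muscle subunit, had log2 fold changes of -0.10 and -0.22 and did not pass. GPI, the isomerase just before this step, was at 257.4 ± 13.0 against 264.4 ± 8.54 CPM (SD, n = 3 each).

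The PFKFB genes encode bifunctional enzymes that make or remove fructose-2,6-bisphosphate, the activator of phosphofructokinase and inhibitor of fructose bisphosphatase. PFKFB1 (chromosome X, 54932961 to 54998534, minus strand), the liver isoform, was at 3.64, 3.79 and 4.47 CPM in PTPF-labelled libraries and at 6.26, 6.12 and 7.11 CPM in STATF-labelled ones. It was 1.64-fold lower, without overlap, at a log2 fold change of -0.71 (edgeR adjusted p = 0.000177, SE 0.13). PFKFB3, the inducible isoform with the strongest kinase activity, was at 46.5, 49.5 and 51.8 against 44.7, 44.8 and 41.4 CPM, a small difference of 0.18 on the log2 scale (edgeR adjusted p = 0.0385, SE 0.061). That call ended under 7 of 15 alternatives, namely library totals (edgeR adjusted p = 0.234), no filter on low counts, and the omission of any 1 library other than PTPF replicate 1 (0.0537 to 0.183). PFKFB2 and PFKFB4 had log2 fold changes of -0.20 and 0.14 and did not pass. PFKFB2 (edgeR adjusted p = 0.0575) did pass with library totals (0.0144), without STATF replicate 1 (0.0248) and with the replicate block (0.0466). The ratio of PFKFB3 to PFKFB1 was 4.30, 4.40 and 3.90 in PTPF-labelled libraries and 2.40, 2.46 and 1.96 in STATF-labelled ones, in counts per kilobase. It was 1.85-fold higher under the PTPF label, with an exact two-sided permutation p of 0.1, the smallest that 3 against 3 libraries allow.

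From aldolase to enolase 1 of 8 genes passed. TPI1, GAPDH, PGK1 and ENO1, enzymes of the reversible middle section, had log2 fold changes between -0.05 and 0.04, and none passed. GAPDH was at 816.3, 736.0 and 760.0 against 816.0, 784.2 and 790.2 CPM. ENO1, the most abundant transcript of the pathway, was at 2163 ± 125 against 2107 ± 11.2 CPM (SD, n = 3 each), and its 95% interval ran from -0.09 to 0.16 on the log2 scale. With library totals its sign turned (-0.03). PGAM1 was at 220.5 ± 6.87 against 237.9 ± 10.2 CPM (SD, n = 3 each) and did not pass (edgeR adjusted p = 0.174), although it did with library totals (0.0129). ENO2, the neuronal enolase, had 8 to 21 counts per library.

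Aldolase C was the gene that passed in this stretch. ALDOC was at 78.0, 74.2 and 74.9 CPM in PTPF-labelled libraries and at 62.2, 66.9 and 61.8 CPM in STATF-labelled ones, without overlap (log2 fold change 0.25, edgeR adjusted p = 0.00156, SE 0.056). ALDOA, the widely expressed aldolase, was at 11.0 to 14.9 against 12.9 to 15.6 CPM and did not pass (edgeR adjusted p = 0.237), although it did without PTPF replicate 3 (0.0334). That level is uncertain, because 42.3% of the ALDOA exon bases lie on the same strand in a second annotated gene, AC093512.2, which itself had 18 to 31 counts per library. The rule by which reads in shared exons were assigned is not stated.

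Both pyruvate kinases, which make the last and irreversible step of glycolysis, were lower in PTPF-labelled libraries. PKM, the form of most tissues, was at 1581, 1479 and 1474 against 1941, 1812 and 1800 CPM, a log2 fold change of -0.29 (edgeR adjusted p = 0.000816, SE 0.062). PKLR (chromosome 1, 155289293 to 155301438, minus strand), the form of liver and red cells, was at 17.1, 15.2 and 20.3 against 27.0, 24.2 and 29.3 CPM, a log2 fold change of -0.62 (edgeR adjusted p = 3.71e-05, SE 0.092). Neither gene's groups overlapped. Per kilobase PKM exceeded PKLR 26.9-fold to 36.0-fold in PTPF-labelled and 22.7-fold to 27.7-fold in STATF-labelled libraries, and these ranges overlapped. Of the PKLR exon bases, 17.6% are shared with HCN3 on the opposite strand, which had 182 to 245 counts in PTPF-labelled and 310 to 328 in STATF-labelled libraries. Its part in the PKLR value was not tested.

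Lactate dehydrogenase A, which reduces pyruvate to lactate, had the smallest adjusted p of the pathway. LDHA stood at 1334, 1206 and 1244 CPM in PTPF-labelled libraries and at 811.1, 874.2 and 865.1 CPM in STATF-labelled ones. It was 1.48-fold higher, without overlap (log2 fold change 0.57, edgeR adjusted p = 5.61e-08, SE 0.061), and no alternative moved it outside 0.50 to 0.61. LDHA lies on chromosome 11 from 18394388 to 18408425, plus strand, and shares no exon base with another gene. The 6 pseudogenes named after LDHA held 0.111% as many counts as LDHA. LDHB, the heart-type subunit, had 6, 2 and 11 counts against 1, 6 and 12, and was not tested. About 33.4% of the LDHB exon bases belong on the same strand to AC010197.2, a gene with 0 to 2 counts per library.

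The lactate exporter SLC16A3 (MCT4) was at 12.6, 13.5 and 15.9 CPM in PTPF-labelled and 11.5, 11.1 and 11.5 CPM in STATF-labelled libraries. Its log2 fold change was 0.30 (edgeR adjusted p = 0.0178, SE 0.091). The call ended without PTPF replicate 3, the highest library (0.20, edgeR adjusted p = 0.165), without STATF replicate 2 (0.0672) and with library totals (0.0757). SLC16A1 (MCT1), which carries lactate in either direction, was at 79.4 to 81.1 against 71.0 to 76.7 CPM and did not pass (log2 fold change 0.11, edgeR adjusted p = 0.162).

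All 4 listed genes of pyruvate dehydrogenase control passed, and they differed in direction. PDHA1, the catalytic subunit of the dehydrogenase, was at 93.0, 82.7 and 83.8 against 100.4, 104.9 and 105.4 CPM (log2 fold change -0.26, edgeR adjusted p = 0.0012, SE 0.057). Among the kinases that switch the dehydrogenase off, PDK1 was higher, at 17.0, 17.5 and 17.6 against 13.3, 13.7 and 14.5 CPM (log2 fold change 0.33, edgeR adjusted p = 0.00219, SE 0.077). PDK2, the kinase with the widest tissue range, was lower, at 17.9, 17.2 and 20.1 against 23.6, 25.9 and 24.4 CPM (log2 fold change -0.42, edgeR adjusted p = 0.000119, SE 0.075). No groups overlapped in these 3 genes. SAMD14, on the opposite strand, shares 38.6% of the PDK2 exon bases and had 4 to 12 counts per library, and MAP3K15 shares 21.3% of those of PDHA1 with 0 to 6 counts.

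PDK3 was at 18.1, 17.1 and 16.2 against 21.5, 18.6 and 19.7 CPM, a log2 fold change of -0.22 close to the threshold (edgeR adjusted p = 0.0446). It no longer passed under 8 of 15 alternatives, including DESeq2 (adjusted p = 0.0707), limma-voom (0.0569) and the omission of PTPF replicate 2 or 3 or STATF replicate 1 or 3 (up to 0.234). The ratio of PDK1 to PDHA1 was 1.51-fold higher under the PTPF label, without overlap (exact permutation p = 0.1). All 3 of these kinases were minor beside PDK4, the form that fasting and fatty acids induce, named after its values were seen. PDK4 stood at 126 ± 3.24 against 147 ± 4.13 CPM per kilobase (SD, n = 3 each), while PDK1, PDK2 and PDK3 had 0.929 to 4.49 on that scale. In CPM, PDK4 was at 567.7 ± 14.6 against 664.2 ± 18.6 (SD, n = 3 each) and was lower in PTPF-labelled libraries (log2 fold change -0.23, edgeR adjusted p = 0.0042).

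In glycogen metabolism 1 gene was lower and 1 higher of the 4 tested. PPP1R3B, the liver subunit that brings protein phosphatase 1 to glycogen and so activates glycogen synthase, was at 23.8, 24.2 and 26.5 CPM in PTPF-labelled and 32.9, 30.5 and 32.1 CPM in STATF-labelled libraries. The groups did not overlap (log2 fold change -0.36, edgeR adjusted p = 0.000222, SE 0.067). PPP1R3C, a related targeting subunit, had 0.13 and did not pass (edgeR adjusted p = 0.188). PYGL, the liver phosphorylase that releases glucose units from glycogen, was at 121.8, 109.1 and 112.9 against 101.0, 105.2 and 102.1 CPM (log2 fold change 0.16, edgeR adjusted p = 0.043). Like PFKFB3 it lost the call under 7 of 15 alternatives, namely library totals (edgeR adjusted p = 0.224), no filter, and the omission of any 1 library other than PTPF replicate 2 (0.0768 to 0.154). UGP2, which makes the UDP-glucose that glycogen synthase uses, was at 167.0 ± 4.11 against 168.5 ± 13.6 CPM (SD, n = 3 each).

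GYS2, the liver glycogen synthase, had 4, 8 and 12 counts in PTPF-labelled libraries and 6, 10 and 3 in STATF-labelled ones, 43 in all, and was not tested. AC010197.2 shares 87.5% of its exon bases on the same strand and had 0 to 2 counts per library. The level of GYS2 is therefore uncertain in this table.

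**Figure D4:**
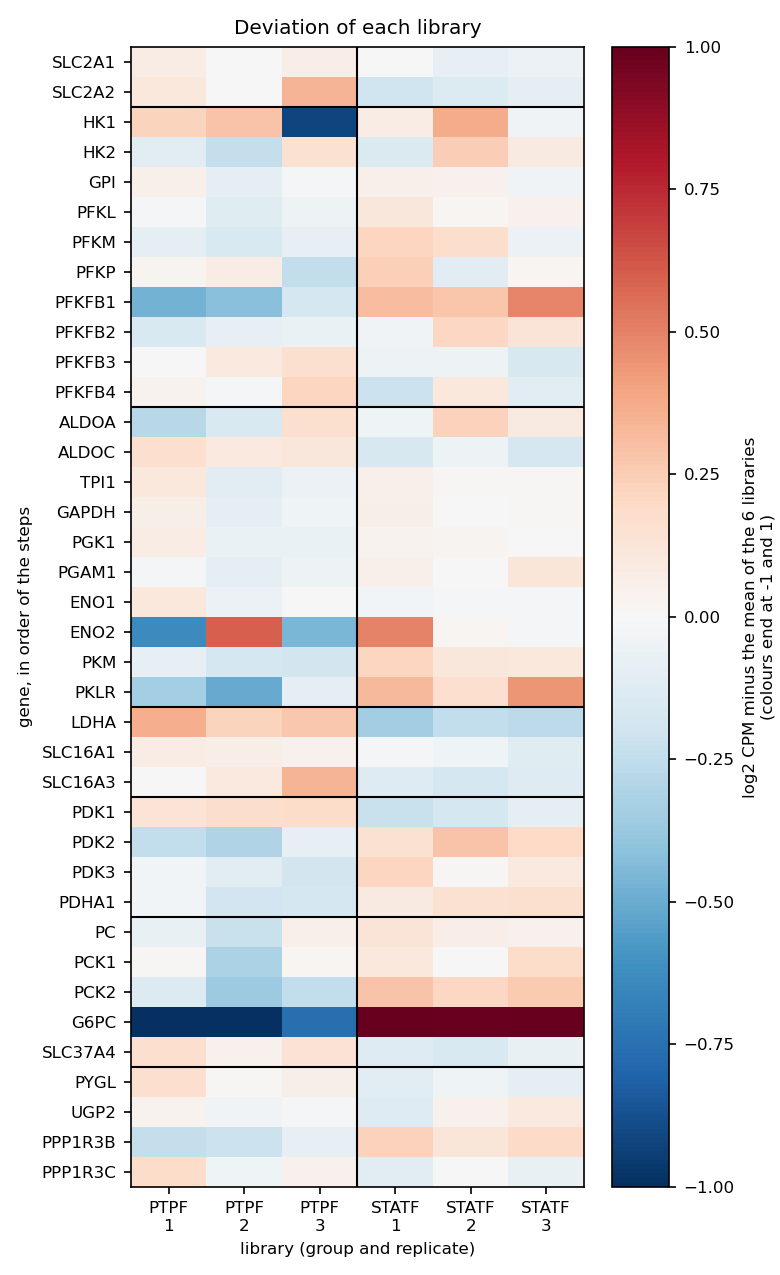
Log2 CPM of each tested gene in each library minus the gene's mean over the 6 libraries, with red above and blue below that mean and lines between the steps. G6PC and LDHA split the libraries by label in opposite directions, while HK1 and ENO2 vary as much within a label as between labels.

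Ratios of paired genes do not depend on the scaling between libraries, and 16 of 17 planned ratios could be formed, the one with FBP1 being left out for its 0 count. The groups did not overlap in 7 of them, each with the smallest possible exact two-sided permutation p of 0.1 (0.229 after Benjamini-Hochberg adjustment over the 16), so that none could pass. PCK1 to PCK2 was 0.901, 0.840 and 0.975 in counts per kilobase in PTPF-labelled libraries and 0.719, 0.705 and 0.774 in STATF-labelled ones. PCK1, which makes PEP from oxaloacetate, to PKLR, which turns PEP into pyruvate, was 4.76, 4.26 and 4.02 against 3.21, 3.33 and 3.14. G6PC to HK1 was 9.05, 5.47 and 24.0 against 42.8, 32.9 and 58.2, a ratio that rests on 17 to 53 HK1 counts. SLC2A1 to SLC2A2 was 1.14-fold lower under the PTPF label. ALDOA to ALDOC was 1.35-fold lower, with the limit on ALDOA given above.

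**Figure D5:**
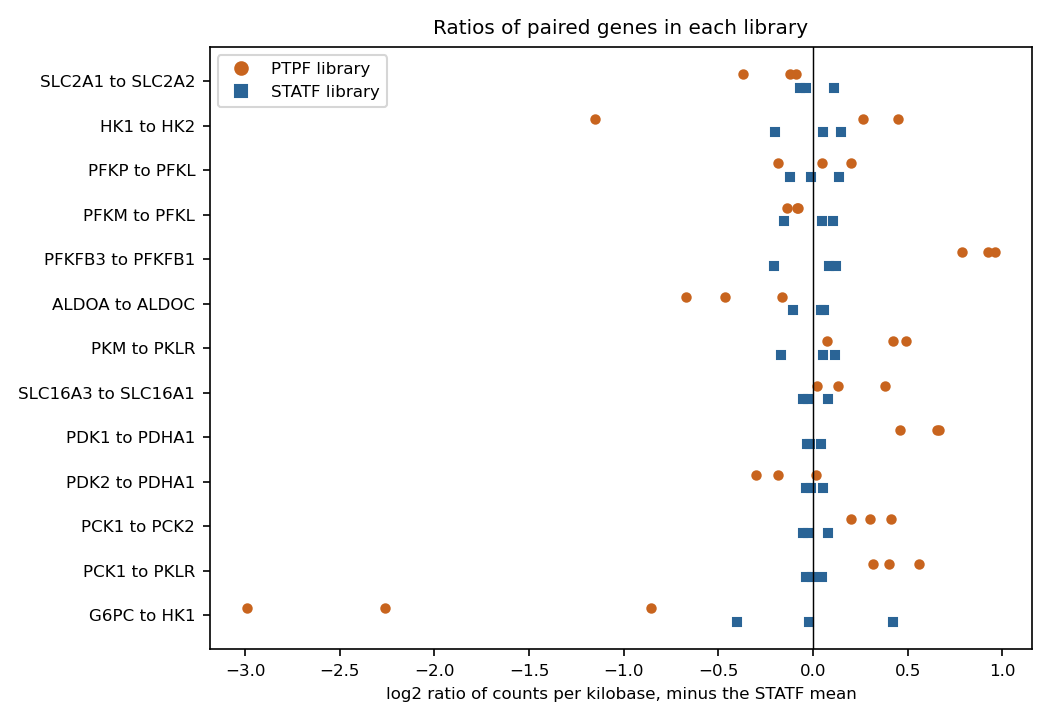
Log2 ratio of counts per kilobase in each library minus the STATF mean, for the 13 ratios in which both genes had at least 10 counts in every library, with circles for PTPF-labelled and squares for STATF-labelled libraries. PFKFB3 to PFKFB1, PDK1 to PDHA1, PCK1 to PCK2 and PCK1 to PKLR lie to the right of all STATF-labelled points, and G6PC to HK1 lies to the left.

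Upstream sequence is shown for G6PC, the gene with the largest difference, for LDHA, the gene with the smallest adjusted p, and for PKLR, the pyruvate kinase gene with the larger difference. LDHA and PKLR have 2 listed windows each, of which only the first is shown and counted for LDHA and both are shown for PKLR. The windows are the 250 bases before a RefSeq start in GRCh38.p14, 5′ to 3′ on the gene's own strand: chr17:42900549-42900798 (plus) for G6PC, chr11:18394313-18394562 (plus) for LDHA, and for PKLR chr1:155301439-155301688 and chr1:155300953-155301202 (both minus), which precede its upstream and its downstream start. Capitals mark matches, on either strand, to ACGTG, the core of the hypoxia response element, which is also contained in the E-box CACGTG.
G6PC: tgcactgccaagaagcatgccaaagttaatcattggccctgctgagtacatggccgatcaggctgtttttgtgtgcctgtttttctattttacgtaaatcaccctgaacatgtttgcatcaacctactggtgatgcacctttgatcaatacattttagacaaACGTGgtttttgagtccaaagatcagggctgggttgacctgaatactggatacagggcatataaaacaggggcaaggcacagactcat
LDHA: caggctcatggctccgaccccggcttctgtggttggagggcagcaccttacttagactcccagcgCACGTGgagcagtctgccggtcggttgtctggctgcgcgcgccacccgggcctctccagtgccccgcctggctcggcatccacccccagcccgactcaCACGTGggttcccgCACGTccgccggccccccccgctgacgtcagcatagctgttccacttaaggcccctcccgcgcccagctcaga
PKLR upstream start: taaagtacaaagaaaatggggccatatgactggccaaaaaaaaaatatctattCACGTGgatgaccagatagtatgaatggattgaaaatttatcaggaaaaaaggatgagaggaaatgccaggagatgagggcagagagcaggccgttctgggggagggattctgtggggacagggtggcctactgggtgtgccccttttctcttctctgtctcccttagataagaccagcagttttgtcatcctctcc
PKLR downstream start: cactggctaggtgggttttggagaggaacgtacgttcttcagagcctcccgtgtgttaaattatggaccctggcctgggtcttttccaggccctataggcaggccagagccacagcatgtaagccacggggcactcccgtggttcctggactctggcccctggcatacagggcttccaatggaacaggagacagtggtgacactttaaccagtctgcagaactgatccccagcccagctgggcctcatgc
The LDHA window shown held 3 separate stretches with a match, G6PC and the upstream PKLR window 1 each, and the downstream PKLR window none.

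A window was matched for 36 of the 41 genes, taking the first listed start, and not for PFKFB2, SLC16A1, PCK1, GYS2 and PPP1R3B. ACGTG was present on either strand in 14 of the 36 (38.9%) and in 18.7% of all 27305 promoter windows of that length. It was found in 2 of the 8 genes that were higher (ALDOC and LDHA), 3 of 8 that were lower (PKLR, PDK3 and G6PC) and 9 of 18 that did not pass, GAPDH, PGK1 and GPI among them. PKLR is counted here by its upstream window only, as its downstream window held no match to ACGTG or CACGTG. Which PKLR start these cells used was not tested. CACGTG was in 5 of 36, against 6.49% of all windows. The STAT-type motif TTCNNNGAA was in 1 of 36, PDK1, against 6.78% of all windows, and the interferon-type motif, GAAA repeated after 2 bases of any kind, in 0 of 36 against 3.07%. These are descriptions of letters in a short window, not of binding.

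Neighbouring pathway genes outside the 41 were also called in both directions, and their counts are to be read beside the 21.6% of all genes called. Of 26 further genes of hexose entry, 20 were tested, 3 of them higher and 3 lower (30.0% called). The level of SLC2A10 (GLUT10) rose, to 33.6 ± 2.64 against 19.4 ± 1.06 CPM (SD, n = 3 each), and SLC2A13 and SLC2A6 had log2 fold changes of 0.29 and 0.23 and were also higher. GALT and GALM, enzymes of galactose use, and SLC2A12 were lower by log2 fold changes of -0.43, -0.45 and -0.69. Of 28 further genes of glycolysis, lactate and pyruvate entry, 26 were tested, 3 higher and 9 lower (46.2% called). The pyruvate and lactate importer SLC16A7 (MCT2) rose, to 47.7 ± 4.03 against 32.2 ± 2.11 CPM (SD, n = 3 each). PDP2, a phosphatase that reactivates pyruvate dehydrogenase, and GPD1, which links glycolysis to glycerol phosphate, were higher by 0.24 and 0.19. Their relatives PDP1 and GPD2, named after their values were seen, were lower, with log2 fold changes of -0.21 and -0.28 (edgeR adjusted p = 0.0393 and 0.00184). LDHD, the D-lactate dehydrogenase, GOT1, an aminotransferase of the malate-aspartate shuttle, DLAT, a core subunit of pyruvate dehydrogenase, and BPGM had log2 fold changes of -0.49, -0.43, -0.30 and -0.34.

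Further glycogen genes counted 2 higher and 4 lower of 24 tested. PGM3, a mutase acting on amino sugars, and PHKB, a subunit of phosphorylase kinase, were higher, with log2 fold changes of 0.32 and 0.26. Among the lower genes, the brain-type phosphorylase PYGB, the glycogen-binding protein STBD1 and the targeting subunit PPP1R3D had -0.27, -0.30 and -0.63. In the pentose phosphate pathway 2 of 9 genes were higher, beside 10.1% of all genes. H6PD, the entry enzyme of the endoplasmic reticulum, was at 752.3 ± 67.5 against 590.6 ± 18.5 CPM (SD, n = 3 each). RPE was higher by 0.26 on the log2 scale.

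Genes that respond to low oxygen or control hepatic glucose genes also went both ways. Of 22 hypoxia-inducible factors, their regulators and targets outside glycolysis, 5 were higher and 3 lower (36.4% called, beside 21.6% of all genes). The factor subunit EPAS1 (0.43), its inhibitor HIF1AN (0.47), the stress gene DDIT4 (0.45) and the carbonic anhydrase CA12 (0.38) were higher on the log2 scale, while the targets NDRG1 (-0.44), ADM (-0.51) and P4HA2 (-0.32) were lower. Of 31 regulators of hepatic glucose genes tested, 6 were higher and 4 lower (32.3% called). MYC was at 129.2 ± 4.78 against 91.2 ± 2.40 CPM and ATF4 at 278.8 ± 15.1 against 220.7 ± 5.99 CPM (SD, n = 3 each), and MLXIP and CEBPB rose with log2 fold changes of 0.36 and 0.22. The coactivator of gluconeogenic genes PPARGC1A was lower, at 27.7 ± 1.33 against 38.4 ± 1.23 CPM (SD, n = 3 each), as were NR1I2 (-0.26), NR4A1 (-1.13) and CEBPA (-0.21).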

How the data were processed

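Per the labels' protocols, libraries were made from polyadenylated RNA primed with random hexamers. The submitters' processing notes name CASAVA 1.8, HISAT2 2.0.5, featureCounts 1.5.0-p3 and the build GRCh38. Not given in the sources used here were the treatment of multi-mapping reads, the strand setting and the annotation release. Each library's values are raw, unnormalized counts per gene as deposited, beside gene length in bases and other gene descriptors. All 41 genes have the same position in GENCODE release 29, from which exon overlaps were computed.

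Libraries were grouped by title. Genes were filtered with filterByExpr (minimum count 10), scaled by TMM and tested by edgeR 4.0.16 under R 4.3.3 (glmQLFit with robust dispersion, group as the single term). P-values were adjusted by Benjamini-Hochberg over all 17844 genes, with a threshold of 0.05. Positive log2 fold changes are higher in PTPF-labelled libraries. Intervals are 95%, and a count of 0 allows 3 counts, a limit that covers counting error only, as no molecular identifiers are named. CPM values use the TMM-scaled library sizes, and CPM per kilobase divides them by the deposited length, which counts all annotated exons. Exact permutation tests used scipy 1.17.1.

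The 41 genes, the lists and the tests were chosen with earlier results of these data known. All 41 genes were to be named, with up to 4 genes per direction of each further list by smallest adjusted p. Others are marked. Chi-square per degree of freedom between replicates was 4.35 to 12.2, so each library counted as 1 replicate. The test was tried on simulated data. Alternatives included DESeq2 1.42.0 and limma 3.58.1 (voom). Protein sequences were not used here. Results of some genes that the rule names are not reported here.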

Additional observations from a re-analysis of the deposited data

How the results depend on the processing

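The 12 genes ALDOC, G6PC, LDHA, PCK2, PDHA1, PDK1, PDK2, PFKFB1, PKLR, PKM, PPP1R3B and SLC37A4 kept their direction and an adjusted p under 0.05 in each of 15 alternatives, and PDK3, PFKFB3, PYGL, SLC16A3 and SLC2A2 kept their direction only. With library totals as the scaling, 1164 of all genes and 5 of the pathway were higher and 14 of the pathway lower. At an adjusted p of 0.01 these counts were 1137, 5 and 8. Leaving out 1 library gave 4 to 7 higher pathway genes, and the cause was not tested beyond the loss of a library. Signs turned for genes that did not pass. ENO1 was at -0.028 with library totals. Leaving out 1 library gave log2 fold changes of -0.377 to 0.105 for HK1, -0.075 to 0.004 for GPI, -0.171 to 0.005 for PFKP, -0.108 to 0.007 for TPI1, -0.008 to 0.08 for ENO1, -0.077 to 0.035 for UGP2 and -0.076 to 0.089 for PTPRD. PTPRD was at -0.061 with library totals, -0.006 with no filter, -0.004 with limma-voom and -0.003 with the replicate block. Correlations of same-numbered deviations were 0.0915, 0.0766 and 0.0027. PTPF replicates 1 and 2 were closest to the STATF replicate of the same number, and PTPF replicate 3 to STATF replicate 2. Values this small cannot decide whether the replicate numbers pair the libraries. The fit with the replicate block gave 8 higher and 12 lower pathway genes and 1928 and 2217 over all genes, with PCK1 (adjusted p = 0.00862), PC (0.0394) and PFKFB2 (0.0466) passing in addition. Low counts left FBP1, LDHB and GYS2 untested and gave HK1, HK2 and ENO2 wide intervals. LDHB and GYS2 also share exon bases on the same strand with another gene. The part of read assignment in their low counts was not tested.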
